A study of Danio rerio with 6 samples.

Results

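The genes described here are β-catenin itself, the TCF/LEF transcription factors through which it acts, and genes that it is known to switch on directly. They were chosen by name from a list of 10: *ctnnb1*, *lef1*, *tcf7*, *tcf7l1a*, *tcf7l2*, *axin2*, *nkd1*, *sp5a*, *znrf3* and *rnf43*. A row of that name was found for 9 of them among the 25281 genes listed, and *rnf43* was not analysed here. All 9 had enough reads to be among the 15705 genes tested. Both groups of zebrafish larvae carried *Tg*(*fabp10a:pt-β-catenin*), a transgene for a stable, oncogenic *Xenopus* β-catenin that the *fabp10a* promoter drives in hepatocytes. From 13 to 15 dpf, a 2-day treatment without food, one group received DMSO, the vehicle, and the other 1 μM GW7647, an agonist of the nuclear receptor PPARα. Livers were dissected at 15 dpf and pooled from many larvae, and 3 libraries of polyadenylated RNA were sequenced for each group. No liver without the transgene was sequenced in these 6 libraries, so every level below is that of a transgenic liver. The comparison asks how PPARα activation changes gene expression in a liver that regenerates from liver progenitor cells (LPCs).

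In canonical Wnt signaling, a destruction complex of Axin, APC, GSK3 and casein kinase 1 marks β-catenin for degradation. Wnt ligands that bind Frizzled and LRP5/6 receptors halt this, and β-catenin enters the nucleus, where it binds TCF/LEF factors and turns genes on. Several of these target genes, *axin2*, *nkd1*, *znrf3* and *rnf43* among them, encode proteins that dampen the pathway. Because β-catenin turns such genes on, their transcripts are widely used as a readout of pathway activity. In the mammalian liver, β-catenin activity is highest around the central vein, where it maintains pericentral enzymes such as glutamine synthetase.

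None of the 9 genes passed the test in either direction without a replicate block. With one, *axin2* and *lef1* fell, as did 7.72% of all tested genes. The largest estimates were those of *sp5a*, *lef1*, *tcf7* and *axin2*, which had 68.9% to 77.3% of their DMSO level in GW7647-treated livers, while *ctnnb1*, *znrf3*, *tcf7l1a* and *tcf7l2* had 94.8% to 105%. The estimated change was negative for 8 of the 9, and the median log2 fold change was -0.21, against -0.01 over all tested genes, of which 51.8% were negative. Of 65 other pathway genes tested, 6 fell in GW7647-treated livers, 5 of them further Wnt target genes such as *dkk1b* and *notum1a*, and 1, *lrp5*, rose, against 3.56% and 5.5% of all tested genes. With the replicate block, 10 of the 65 fell and 4 rose, against 7.72% and 9.95% of all tested genes. The genes and lists were chosen with earlier results of these data known.

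Libraries held 19961881 to 25224356 reads on exons, and a count of 0 allows up to 3 reads, 0.127 to 0.163 CPM (counts scaled to library size with edgeR's TMM factors). Across all genes, 559 fell and 864 rose at an adjusted p of at most 0.05 (3.56% and 5.5% of those tested, quasi-likelihood test of edgeR, Benjamini-Hochberg adjustment). TMM factors separated the groups, 1.05 to 1.1 with DMSO and 0.903 to 0.94 with GW7647. Without them, 2382 genes fell and 460 rose, and the median of all genes moved to -0.23. The methods describe larvae from several clutches and independent samples, but name no clutch or day for a given replicate. The p-values measure the spread between these pooled samples, however much of it is technical. An exact permutation test of 3 libraries against 3 cannot give a p below 0.1 for a single gene. In bulk RNA, fewer cells of a type and less RNA per cell cannot be told apart. Hepatocyte markers were abundant and shifted with treatment, with 9 of 12 rising, 1 of 12 falling and a summed level of 30530 to 33000 CPM with DMSO and 44520 to 47580 CPM with GW7647. The most abundant in this sum were *bhmt* (means of 9451 CPM with DMSO and 14000 CPM with GW7647) and *apoa2* (8064 and 13820 CPM). *apoa1a* and *tfa* did not pass the test. Biliary and LPC markers fell in 3 of 10 cases, with sums of 12970 to 14510 and 11210 to 11750 CPM. Stellate cell markers fell in 5 of 7, with sums of 213.7 to 245.2 and 160.7 to 175 CPM. Neutrophil markers fell in 2 of 5, with sums of 33.8 to 115 and 22.8 to 25.8 CPM, and macrophage markers in 1 of 7, with sums that overlapped. The neutrophil maximum came from *il1b* in DMSO replicate 1 (77.6 CPM, against 0.484 to 2.87 in the other libraries), and without *il1b* the sums were 31.9 to 44.4 and 21.9 to 25.3 CPM. The library of DMSO replicate 2 held more exocrine pancreas RNA (73.7 CPM, against 9.13 to 20.1 in the others) and more muscle RNA (35.1 CPM, against 4.95 to 12.1).

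Levels between genes were compared per length of a gene's annotated exons, as TPM in the DMSO libraries. The order thus depends on these lengths, such as 7328 bases for *tcf7l2* and 2046 for *tcf7*. β-catenin was by far the most abundant of the 9, with 149, 134 and 177 TPM in DMSO replicates 1, 2 and 3, a mean of 153 ± 21.9 (SD, n = 3) and the 97.1 percentile of all listed genes. Next came *axin2*, a scaffold of the destruction complex and a feedback target, at 27.5, 18.04 and 30.7 TPM (25.4 ± 6.58). Neither overlapped with its neighbour below. The cytoplasmic Wnt antagonist *nkd1* (15.6 ± 2.12 TPM), *lef1* (13.6 ± 3.43), the ubiquitin ligase gene *znrf3* (10.7 ± 1.69) and *tcf7* (8.21 ± 0.832) followed, and each overlapped with the next in this order. Below them lay *tcf7l1a* at 6.51 ± 0.25 TPM, which overlapped with neither neighbour. The lowest were *sp5a* (4.81 ± 1.62 TPM) and *tcf7l2* (4.1 ± 0.763), which overlapped with each other. All 9 were thus transcribed well above the detection limit. The smallest exon count among these 9 genes was 62 reads, for *sp5a* in GW7647 replicate 2 (exact Poisson 95% interval 47.5 to 79.5, counting error only).

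**Figure D1:**
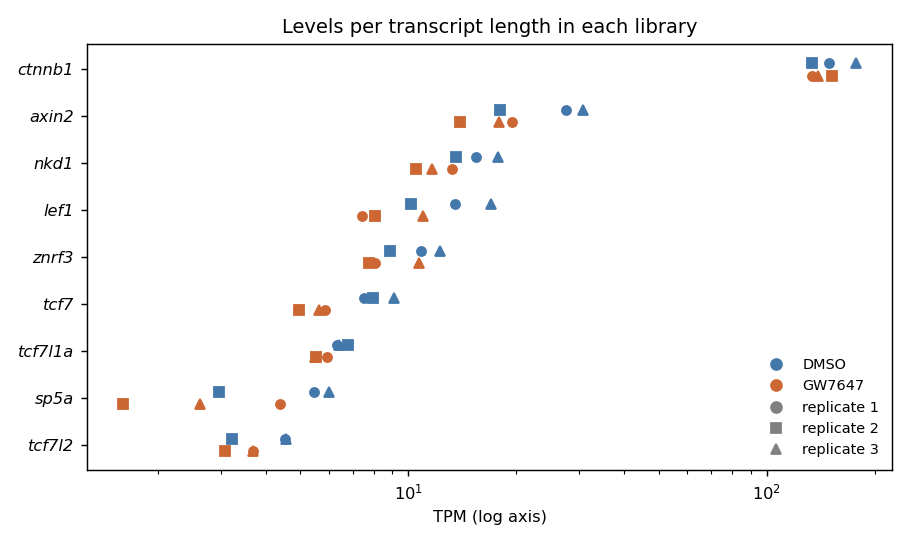
TPM on a log axis of each of the 9 genes in each of the 6 libraries (blue, DMSO; orange, GW7647; the shape gives the replicate number), ordered by the DMSO mean. *ctnnb1* lies above 100 TPM in every library, and the other 8 genes lie between 1.60 and 30.7 TPM.

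The transcript of β-catenin, the shared effector, was measured first. *ctnnb1* (ENSDARG00000014571, chromosome 16 from 6182501 to 6205790, minus strand, 17 exons) stood at 261, 262 and 309 CPM in DMSO replicates 1, 2 and 3 and at 283, 312 and 282 CPM in GW7647 replicates 1, 2 and 3. The groups overlapped and the log2 fold change was 0.08 (95% interval -0.16 to 0.31, adjusted p = 0.70, edgeR). A change of 1.5-fold in either direction lies outside this interval, although the sign turned negative without TMM factors (-0.15) and on TPM (-0.11). The counts do not separate reads of the *Xenopus* transgene, so how much of this level, if any, came from it cannot be told. The second zebrafish β-catenin gene, *ctnnb2*, was at 161, 173 and 207 CPM with DMSO and at 145, 175 and 179 CPM with GW7647 (log2 fold change -0.12, 95% interval -0.40 to 0.17, adjusted p = 0.62). Per length, *ctnnb2* had 58.9% to 63.8% of the *ctnnb1* level in DMSO libraries and 48.8% to 60.7% in GW7647 libraries. Endogenous *fabp10a*, the gene whose promoter drives the transgene, stood at 2263, 2347 and 2548 CPM with DMSO and at 2010, 1777 and 1799 CPM with GW7647. It was the hepatocyte marker that fell (log2 fold change -0.36, adjusted p = 0.050), and that call was lost when any one of the 6 libraries was left out (adjusted p from 0.067 to 0.18). The part of the transgene's own level in the values below was not tested.

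The TCF/LEF factors bind β-catenin and carry it to DNA. *lef1*, which acts mostly as an activator and is itself a Wnt target, and *tcf7*, which encodes TCF1, had the lower estimates, while *tcf7l1a*, of the largely repressive TCF3 kind, and *tcf7l2* (TCF4) stayed close to their DMSO level. *lef1* (ENSDARG00000031894, chromosome 1 from 49814461 to 49905357, plus strand) was at 33.6, 28.1 and 42.0 CPM in DMSO replicates 1, 2 and 3 and at 22.2, 23.4 and 31.7 CPM in GW7647 replicates 1, 2 and 3. The highest GW7647 library lay above the lowest DMSO library, but each GW7647 library lay below the DMSO library of the same number. The log2 fold change was -0.42 (SE 0.18, adjusted p = 0.18, edgeR). Over all genes, same-numbered libraries deviated together, though weakly (correlations of 0.161 to 0.324). In an edgeR fit with the replicate number as a block, *lef1* passed the test (log2 fold change -0.42, SE 0.09, adjusted p = 0.014).

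*tcf7* (ENSDARG00000038672, chromosome 21 from 45267589 to 45337118, plus strand) was at 8.01, 9.41 and 9.66 CPM with DMSO and at 7.50, 6.15 and 6.96 CPM with GW7647. It was the only one of the 9 whose groups did not overlap, and all GW7647 libraries were the lower ones, as in 15.3% of all tested genes. Its log2 fold change was -0.40 (SE 0.14, adjusted p = 0.12, edgeR), and it did not pass with the replicate block either (adjusted p = 0.085). It passed with limma on log2(TPM + 1), at -0.51 (adjusted p = 0.038), a scale on which the median of all tested genes was -0.15 and 9.39% of genes fell.

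Both remaining factors overlapped between the groups. *tcf7l1a* (ENSDARG00000038159, chromosome 10 from 42195732 to 42297889, minus strand) was at 8.88, 10.6 and 8.92 CPM with DMSO and at 9.999, 9.05 and 8.95 CPM with GW7647, a log2 fold change of -0.02 (95% interval -0.31 to 0.27, adjusted p = 0.94). *tcf7l2* (ENSDARG00000004415, chromosome 12 from 30977736 to 31103906, minus strand) was at 17.2, 13.7 and 17.3 CPM with DMSO and at 16.9, 13.7 and 16.3 CPM with GW7647. For both genes the interval holds no change of 1.5-fold, and for *tcf7l2* it runs from -0.34 to 0.26. Whether *lef1* and *tcf7* changed more than *tcf7l1a* and *tcf7l2* was not tested.

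Summed over *lef1*, *tcf7*, *tcf7l1a*, *tcf7l1b* and *tcf7l2*, TCF/LEF transcripts came to 33.6, 29.6 and 38.9 TPM in DMSO libraries and to 24.1, 23.2 and 27.5 TPM in GW7647 libraries, which did not overlap. On TPM, 31.1% of all tested genes were lower without overlap, and the same sum in TMM-scaled CPM did overlap, at 72.1, 66.1 and 82.6 with DMSO and at 60.4, 57.4 and 69.0 with GW7647. The make-up of the TPM sum overlapped for every factor. *lef1* took the most, 34.3% to 43.8% with DMSO and 30.9% to 40.1% with GW7647, and *tcf7* took 22.4% to 26.9% and 20.5% to 24.3%. LEF1 and TCF1 are also factors of T cells. Of the 12 T cell markers, 5 could be tested and 0 passed with edgeR, DESeq2 or at an unadjusted p under 0.05, and *lck*, *zap70*, *cd8a*, *rag1*, *rag2*, *itk* and *cd28* had too few reads. All 5 had a negative estimate (median log2 fold change -0.34), where 51.8% of all tested genes did (median -0.01). The T cell sum was 13.4 to 15.1 CPM with DMSO and 11.5 to 12.3 CPM with GW7647, without overlap, as 15.3% of all tested genes were lower in CPM. It was mostly *ptprc* and *runx3*, which other blood cells also express, and its part in the *lef1* and *tcf7* values was not tested.

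**Figure D2:**
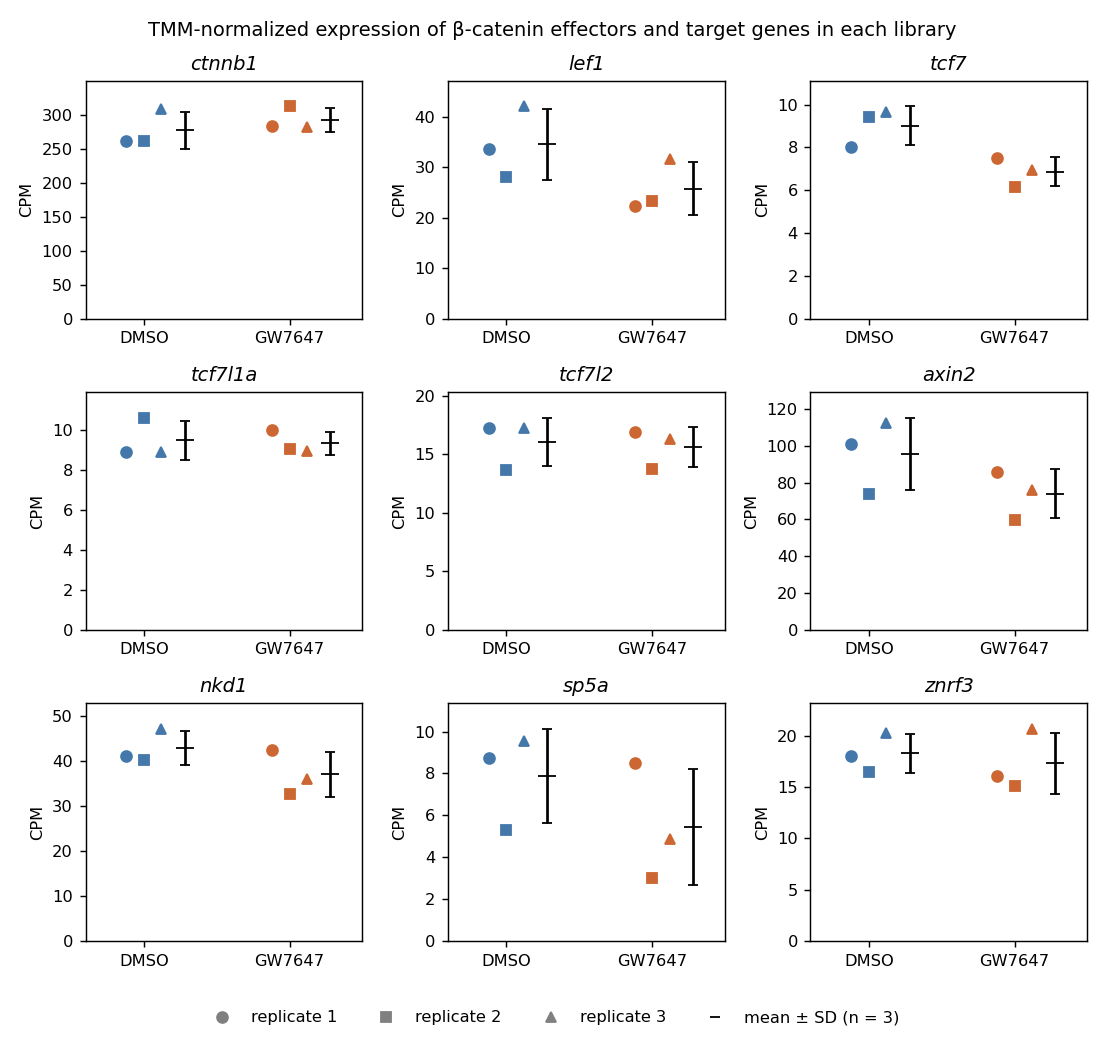
TMM-normalized CPM of the 9 genes in each library, each panel from 0 (blue, DMSO; orange, GW7647; the shape gives the replicate number; bars, mean ± SD of 3 libraries). Only for *tcf7* do the GW7647 libraries (6.15 to 7.50 CPM) all lie below the DMSO libraries (8.01 to 9.66 CPM), and *ctnnb1*, *tcf7l1a*, *tcf7l2* and *znrf3* show nearly equal means.

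The direct target genes encode feedback inhibitors and a transcription factor. *axin2* (ENSDARG00000100149, chromosome 3 from 55627948 to 55650771, minus strand, 14 exons), the most commonly used readout of β-catenin activity, was at 101, 73.7 and 112 CPM in DMSO replicates 1, 2 and 3 and at 85.8, 59.7 and 76.2 CPM in GW7647 replicates 1, 2 and 3. Replicate 2 was the lowest of its group on both sides, so that DMSO replicate 2 lay below 2 of the GW7647 libraries, and all 3 same-numbered differences were negative (-0.23, -0.31 and -0.56 on the log2 scale). The log2 fold change was -0.37 (SE 0.18, 95% interval -0.77 to 0.03, adjusted p = 0.23, edgeR), and with the replicate block it was -0.37 with a smaller error (SE 0.09, adjusted p = 0.020). With the block, 2 of the 9 genes passed, *axin2* and *lef1*, where 7.72% of all tested genes fell. Reads in *axin2* introns, which may come from unspliced RNA, numbered 48, 44 and 53 with DMSO and 35, 22 and 31 with GW7647. After scaling, these groups overlapped too.

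*nkd1* (ENSDARG00000020053, chromosome 7 from 37582281 to 37622370, minus strand) was at 41.0, 40.3 and 47.1 CPM with DMSO and at 42.4, 32.7 and 35.9 CPM with GW7647. GW7647 replicate 1 lay within the DMSO range and the other two below it. The log2 fold change was -0.21 (SE 0.12, 95% interval -0.48 to 0.06, adjusted p = 0.31), smaller than 1.5-fold over the whole interval.

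*znrf3* (ENSDARG00000062573, chromosome 5 from 15992655 to 16126906, plus strand) encodes a membrane ubiquitin ligase that removes Frizzled receptors from the cell surface. Its values were 18.04, 16.5 and 20.3 CPM with DMSO and 16.1, 15.1 and 20.7 CPM with GW7647, where replicate 3 was the highest of each group and above the DMSO maximum in the treated one. The log2 fold change of -0.08 (95% interval -0.40 to 0.24, adjusted p = 0.78) did not exceed the spread between libraries.

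*sp5a* (ENSDARG00000076571, chromosome 9 from 3666401 to 3671911, minus strand, 2 exons), a zinc finger transcription factor gene that Wnt signaling turns on, was the most variable. It was at 8.75, 5.30 and 9.57 CPM with DMSO and at 8.48, 3.002 and 4.88 CPM with GW7647, so GW7647 replicate 1 matched the DMSO libraries while the other two were lower. The log2 fold change of -0.54 (SE 0.35, 95% interval -1.33 to 0.26, adjusted p = 0.38) leaves both no change and a fall of more than 1.5-fold within its interval. It ranged from -0.99 without GW7647 replicate 1 to -0.24 without GW7647 replicate 2. Intron reads of *sp5a* numbered 14, 6 and 8 with DMSO and 4, 2 and 1 with GW7647. These few reads did not overlap between the groups, whereas the scaled intron reads of the rest of the 9 genes did. How many of all genes separate in this way was not counted.

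**Figure D3:**
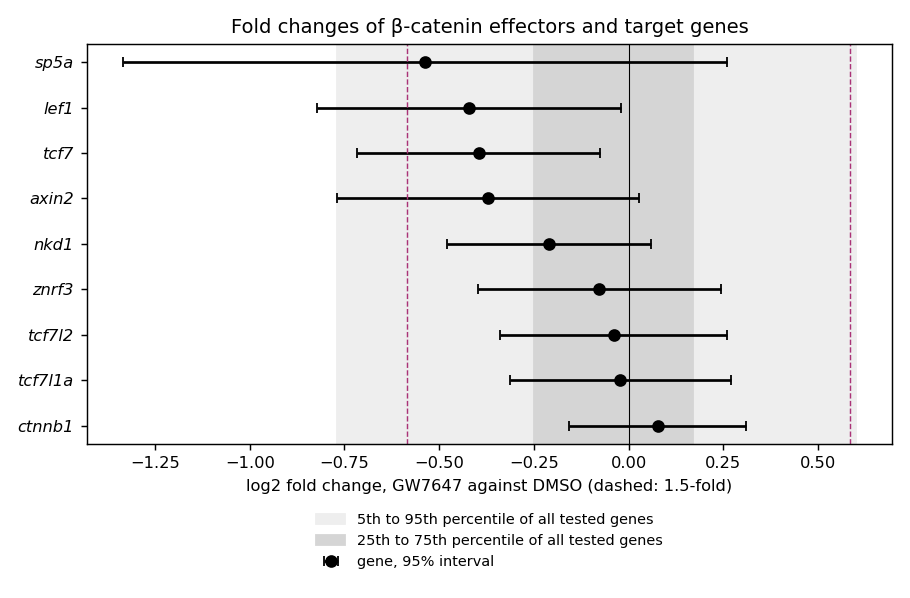
Log2 fold changes of GW7647 against DMSO from edgeR (points, with 95% intervals), over the range of all 15705 tested genes (light grey, 5th to 95th percentile, -0.77 to 0.60; dark grey, 25th to 75th, -0.25 to 0.17; dashed, 1.5-fold). Every estimate lies within the light band, and the intervals of *lef1* and *tcf7* alone do not reach 0, before adjustment over all genes.

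Before adjustment, 2 of the 9 genes had a p under 0.05, *tcf7* and *lef1*, both lower, against 12.3% of all tested genes that were lower at that level. DESeq2 called 0 of the 9. Without TMM factors, *axin2*, *nkd1*, *lef1* and *tcf7* passed the test (log2 fold changes -0.60, -0.44, -0.65 and -0.62, adjusted p from 0.021 to 0.049), 4 of 9 where 15.2% of all genes fell and the median of all genes was -0.23. Leaving out any one library gave a call for none of the 9.

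A ratio within a library does not depend on the scaling between libraries. Set against *ctnnb1* in TPM, *nkd1* stood at 10.3%, 10.1% and 10.1% in DMSO libraries and at 9.88%, 6.90% and 8.40% in GW7647 libraries, and *tcf7* at 5.06%, 5.94% and 5.16% and at 4.37%, 3.25% and 4.07%. Both ratios were lower in every GW7647 library than in any DMSO library, 2 of 8 ratios, as were the ratios to *ctnnb1* of 16.8% of all tested genes. The *axin2* ratio overlapped, at 18.4%, 13.5% and 17.4% with DMSO and at 14.5%, 9.13% and 12.9% with GW7647, and so did those of *lef1*, *znrf3*, *tcf7l1a*, *sp5a* and *tcf7l2*. The ratios were not tested, and a lower ratio would not tell which of the 2 transcripts moved. Over the 6 libraries, the profile of *axin2* was closest to those of *fgfrl1a*, *myh9a* and *agrn* (root mean square difference of log2 deviations 0.062, 0.077 and 0.081), none of which passed the test. These genes were picked from all tested genes for this likeness, so their closeness and lack of a call largely follow from the choice. *fgfrl1a* had a mean of only 1.75 CPM.

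The rest of the pathway was read from lists of genes grouped by role, 65 tested of 73 found. Of these, 6 fell and 1 rose, each by at least 1.5-fold, beside 2.62% and 3.39% of all tested genes with such a fall or rise. With the replicate block 10 fell and 4 rose, where 7.72% and 9.95% of all tested genes did. The block added *ccnd1*, *bambia*, *bambib* and *dvl3a* to the genes that fell and *glula*, *cyp1a* and *fbxw11b* to those that rose.

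Other Wnt target genes held 5 of the 6 that fell (5 of 15 tested, 0 rose), and 13 of the 15 had a negative estimate (median -0.41). Over all tested genes, 3.56% fell, 51.8% had a negative estimate and the median was -0.01. This list, like the others, was chosen with earlier results of these data known. *dkk1b*, which encodes a secreted inhibitor of LRP5/6, changed most, from 25.1, 39.6 and 33.1 CPM in DMSO replicates 1, 2 and 3 to 5.33, 9.20 and 9.76 CPM in GW7647 replicates 1, 2 and 3. That is 25% of the DMSO level, a log2 fold change of -2.00 (SE 0.24, adjusted p = 0.0018, edgeR), and the groups did not overlap. All GW7647 libraries were the lower ones in 15.3% of all tested genes. *cd44a*, for a receptor of the matrix polymer hyaluronan, went from 5.02, 4.15 and 4.41 CPM to 0.978, 1.65 and 1.61 CPM (log2 fold change -1.66, SE 0.23, adjusted p = 0.0038). *apcdd1l*, related to a membrane inhibitor of Wnt signaling, went from 2.49, 1.80 and 2.58 CPM to 0.870, 0.726 and 0.806 CPM (-1.51, SE 0.26, adjusted p = 0.0097), on 15 to 19 reads per GW7647 library. On scales that compress low values, limma gave -0.65 for *apcdd1l* on log2(TPM + 1) (adjusted p = 0.013, or 0.064 with no filter) and -0.42 on log2(RPKM + 1) (adjusted p = 0.012). It gave -1.06 for *cd44a* on log2(RPKM + 1) (adjusted p = 0.0024).

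Both zebrafish copies of *notum1*, which encodes a secreted enzyme that inactivates Wnt ligands, fell as well. *notum1a* was at 16.8, 21.3 and 17.5 CPM with DMSO and at 8.42, 9.97 and 9.84 CPM with GW7647 (log2 fold change -0.97, SE 0.13, adjusted p = 0.0034). *notum1b* was at 31.8, 48.0 and 40.7 CPM with DMSO and at 18.3, 23.8 and 26.1 CPM with GW7647 (-0.82, SE 0.17, adjusted p = 0.022). The *notum1b* call did not survive the removal of DMSO replicate 2, DMSO replicate 3, GW7647 replicate 1 or GW7647 replicate 2 (adjusted p of 0.058 to 0.068). For both copies the treated libraries all lay below the controls, as in 15.3% of all tested genes. Among the 10 that did not pass were *ccnd1*, the cyclin D1 gene, whose groups did not overlap (-0.61, adjusted p = 0.054), and *dact1*, which had the highest estimate of the list (0.26, adjusted p = 0.81).

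**Figure D4:**
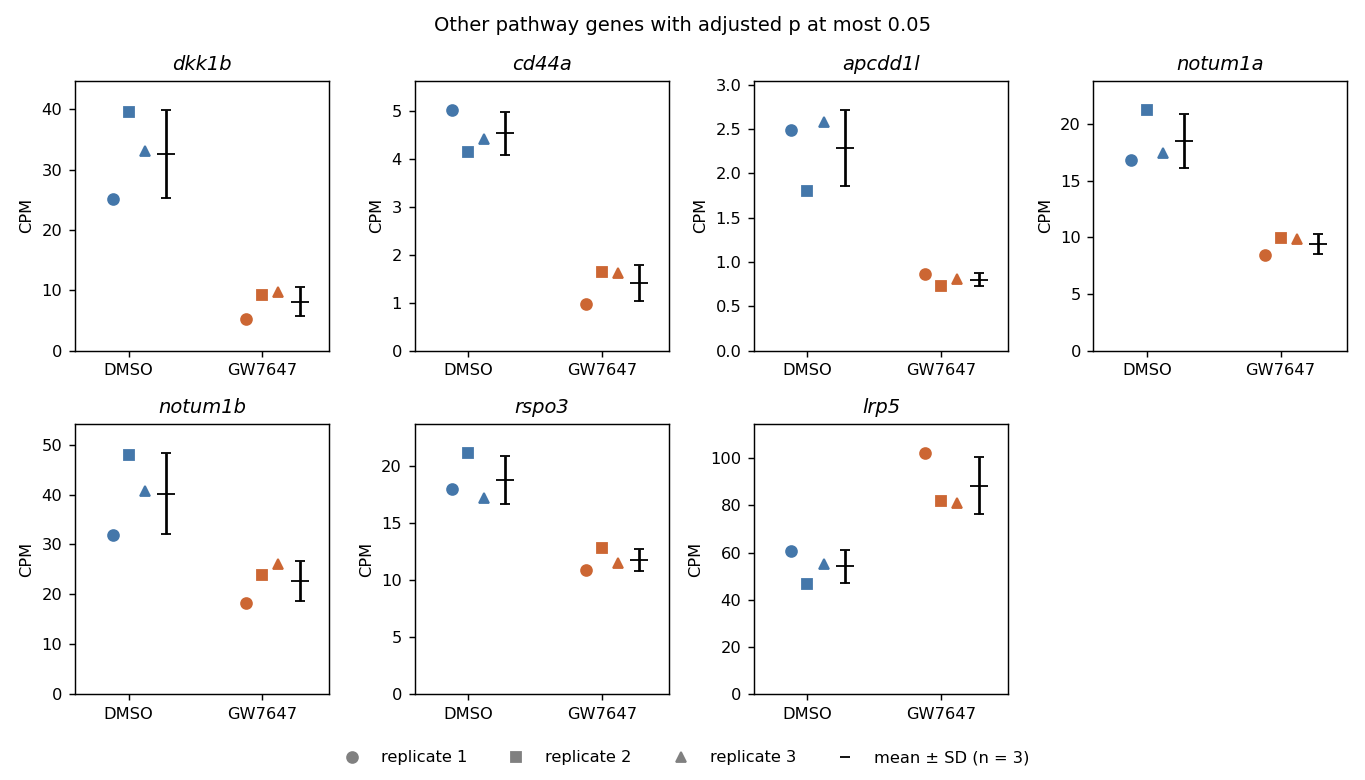
TMM-normalized CPM in each library of the 7 other pathway genes that passed the test, each panel from 0 (blue, DMSO; orange, GW7647; the shape gives the replicate number; bars, mean ± SD of 3 libraries). The genes are shown because they passed the test, which favours groups that lie apart, and the groups do not overlap in any panel. Of all tested genes, 15.3% were lower and 15.7% higher with GW7647 without overlap. *dkk1b* lies at 25.1 to 39.6 CPM with DMSO and at 5.33 to 9.76 CPM with GW7647, and *lrp5* is the one panel with the higher values under GW7647.

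Of 9 tested genes of Wnt signal reception, 1 fell and 1 rose (median 0.04). *rspo3*, for a secreted R-spondin that raises Wnt sensitivity by removing ZNRF3 and RNF43 from the membrane, was at 17.9, 21.1 and 17.1 CPM with DMSO and at 10.9, 12.8 and 11.5 CPM with GW7647 (log2 fold change -0.68, SE 0.12, adjusted p = 0.012, edgeR). In the mouse liver *rspo3* comes from central vein endothelium and stellate cells. Stellate markers fell here as given above, endothelial markers fell in 0 of 8 cases with edgeR, DESeq2 or at an unadjusted p under 0.05, with overlapping sums (209.5 to 233 and 205.2 to 237.5 CPM). With the replicate block 1 endothelial marker fell, *stab2*, a scavenger receptor gene of liver sinusoids (log2 fold change -1.13, adjusted p = 0.039). Its groups overlapped, at 1.887, 4.064 and 1.573 CPM with DMSO and at 1.576, 1.501 and 0.4243 CPM with GW7647. DMSO replicate 2 was the highest, on 95 reads, against 10 to 41 in the other libraries. The part of either cell type in the *rspo3* value was not tested. *lrp5*, the Wnt co-receptor gene, was at 60.6, 46.6 and 55.2 CPM with DMSO and at 102, 81.9 and 81.1 CPM with GW7647. Its log2 fold change was 0.71 (SE 0.13, adjusted p = 0.014), a rise to 163% of the DMSO level, which did not pass with limma on log2(TPM + 1) (0.48, adjusted p = 0.074). The paralog *lrp6* changed little (0.04, 95% interval -0.32 to 0.39, adjusted p = 0.92).

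Without a replicate block, the lists on the protein side of the pathway held no gene that passed with edgeR or DESeq2. In the destruction complex, 0 of 10 tested genes fell and 0 rose (median 0.06), and 1, *fbxw11b*, was higher at an unadjusted p under 0.05. At that level, 1938 of all 15705 tested genes were lower and 2000 higher. With the block, *fbxw11b* rose (log2 fold change 0.25, adjusted p = 0.05, edgeR), as did 9.95% of all tested genes. The scaffold *axin1* had a log2 fold change of 0.00 (95% interval -0.22 to 0.21) and *apc* one of -0.02 (95% interval -0.21 to 0.18), and the estimates ran from -0.39 for a *gsk3bb* transcript listed as *si:dkeyp-80c12.7* (adjusted p = 0.29) to 0.25 for *fbxw11b* (adjusted p = 0.14). Catenins and cadherins, the adhesion partners of β-catenin, also gave 0 of 7 (median -0.06), 0 of them at an unadjusted p under 0.05, from *jupb* at -0.13 (adjusted p = 0.80) to *cdh2* at 0.07 (adjusted p = 0.68). Nuclear partners such as BCL9, Pygopus, the Groucho/TLE corepressors and the CBP/p300 acetylases gave 0 of 18 (median 0.04). Their range went from *cby1*, for an antagonist that binds β-catenin, at -0.52 (adjusted p = 0.15) to *tle5*, listed as *aes*, at 0.41 (adjusted p = 0.14). These 2 genes alone of the 18 had an unadjusted p under 0.05, 1 lower and 1 higher, beside the 1938 and 2000 of all tested genes. On log2(TPM + 1), limma called 1 of the 18 lower, and 9.39% of all tested genes.

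Pericentral liver genes are the metabolic targets of β-catenin known from the mammalian liver. With edgeR and no block, 0 of 7 tested passed (median 0.15). At an unadjusted p under 0.05, 1 was higher, as were 2000 of all 15705 tested genes. DESeq2 called 1 of the 7 higher, and 1093 of all tested genes. *glula*, for glutamine synthetase, was at 89.2, 66.9 and 101 CPM with DMSO and at 166, 94.0 and 130 CPM with GW7647. These groups overlapped, and the log2 fold change of 0.61 (SE 0.21) missed the threshold in the fit without a block (adjusted p = 0.11). With the replicate block, 2 of the 7 rose, where 9.95% of all tested genes did. They were *glula* (log2 fold change 0.59, SE 0.11, adjusted p = 0.0059) and *cyp1a* (0.47, SE 0.11, adjusted p = 0.019). The lowest estimate was that of *lect2l* (-1.41, SE 0.67, adjusted p = 0.23), which rested on DMSO replicate 1, with 9883 reads against 1124 to 2237 in the other 5 libraries.

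**Figure D5:**
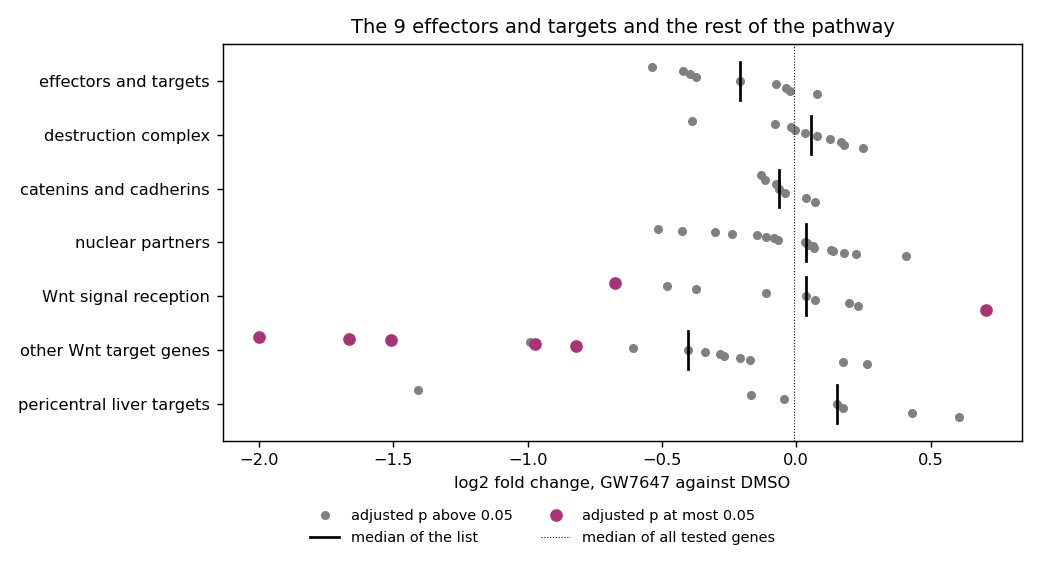
Log2 fold changes of the 9 effectors and targets and of 6 lists of other pathway genes (points, tested genes; purple, adjusted p at most 0.05; black lines, list medians; dotted line, median of all tested genes, -0.01). The other Wnt target genes run from -2.00 to 0.26 (median -0.41), with 5 purple points at -2.00 to -0.82, and the 9 effectors and targets run from -0.54 to 0.08 (median -0.21). All lists were chosen with earlier results of these data known, and these 2 were not tested against each other.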

How the data were processed

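The authors mapped paired reads of TruSeq stranded mRNA libraries to the zebrafish genome in CLC Genomics Workbench. Its version, the genome build and the setting for reads with several matches are not given in the sources used here. Each deposited count gives the reads on a gene's exons as a whole number that was not normalized. TPM and RPKM values were derived by the authors' software from the same reads, by exon length and library total. The deposited tables also hold, as a fraction from 0 to 1, the share of a gene's exon reads that mapped uniquely and the share of its reads in introns. Between 96.3% and 96.8% of exon reads mapped to 1 place, and at least 99.98% for the 9 genes described. Positions are as deposited.

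Counts were compared with edgeR 4.0.16 in R 4.3.3 (quasi-likelihood test, TMM, filterByExpr with a minimum count of 10, no covariate) over 15705 genes. Genes were called at a Benjamini-Hochberg adjusted p of at most 0.05, and the study's 1.5-fold threshold is given beside it. To see if equal replicate numbers mark paired libraries, deviations of log2 CPM from the group means were correlated. The correlation was 0.324, 0.201 and 0.161 for same-numbered pairs and -0.239 to 0.0754 for the 6 others, so the fit with a replicate block is given where it changes a call among the 9 genes, the pathway lists or the endothelial markers. The pairing rests on this correlation, since no label names what a number shares. Deviations from a group mean cancel within the group, so lower values for the other pairs partly follow from higher ones for same-numbered pairs.

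The genes and the lists around them were chosen with earlier results of these data known. The text names all 9 genes, of each pathway list the genes that passed and the lowest and highest estimate, and the 3 genes closest to *axin2* in profile. *ctnnb2*, *fabp10a*, *ccnd1*, *lrp6*, *axin1*, *apc*, *glula*, *il1b* and the genes that only the block called were named besides, after their values were seen. Of 186 list entries, 3 were matched by an older symbol or identifier and 10 were not matched. The alternatives, 20 in all, were DESeq2 1.42.0, other scalings and filters, the block, each library left out, all gene reads, exon reads with 1 match only, limma 3.58.1 on log2 TPM or RPKM, a test against 1.5-fold and, added after seeing the data, reads across exon junctions. Some of the fits were tested before use on simulated data. There, changed genes moved by 1.5-fold or more, with equal relative spread for all genes and no replicate effect. No 2 of the 6 libraries held identical counts. Python 3.11.15 with pandas 2.3.3 and matplotlib 3.10.9 prepared tables and plots.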

Additional observations from a re-analysis of the deposited data

How the results depend on the processing

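The 9 genes gave 0 calls, higher or lower, in the fit reported and with DESeq2, upper-quartile scaling, both other filters, uniquely mapped reads, all reads on the gene, junction reads, the test against 1.5-fold, limma on log2(TPM + 1) with no filter and each library left out. They gave 4 lower calls with no scaling factor (3 of them over 1.5-fold), 2 with the replicate block and 1 with limma on log2(TPM + 1), log2(RPKM + 1) and log2(TPM + 0.1). The log2 fold change of *ctnnb1* turned to -0.15 with no scaling factor, -0.13 on RPKM and -0.11 on the 3 TPM scales, and that of *tcf7l1a* to 0.01 with all reads on the gene. With one library left out, values ran from -0.07 to 0.07 for *tcf7l1a*, -0.14 to 0.05 for *tcf7l2* and -0.22 to 0.02 for *znrf3*. With no scaling factor, the shift in the median of all genes (-0.23) is built into every value.

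Pathway genes that fell numbered 6 as reported, 14 with no scaling factor, 10 with the replicate block and 2 against 1.5-fold. In limma they numbered 11 on log2(TPM + 1) and log2(TPM + 0.1), 12 on log2(RPKM + 1) and 3 on log2(TPM + 1) with no filter. Those that rose numbered 1 as reported, 2 with DESeq2, 4 with the replicate block and 0 in the 4 limma fits and against 1.5-fold. Over all genes, those that fell and rose numbered 559 and 864 as reported, 2382 and 460 with no scaling factor, 1212 and 1563 with the replicate block and 29 and 139 against 1.5-fold. In limma they numbered 1474 and 420 on log2(TPM + 1), 1870 and 436 on log2(RPKM + 1) and 1420 and 421 on log2(TPM + 0.1). On log2(TPM + 1) with no filter, limma gave 224 and 105. DESeq2 gave 702 and 1093, and upper-quartile scaling 707 and 711. With one library left out, 209 to 386 fell and 502 to 676 rose. The causes of these differences were not tested. The smallest exon and junction counts of the 9 genes were those of *sp5a*, at 62 to 219 exon reads and 1 to 16 junction reads. Its junction estimate was -1.62 (adjusted p = 0.095, edgeR). The part of depth in its spread was not tested, and *tcf7*, at 127 to 221 exon reads, had a smaller SE (0.14 against 0.35).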
